A study of Mus musculus with 21 samples.

Results

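Cyp2b10, Cyp2b13 and Cyp2b9 are cytochrome P450 genes of 1 cluster on mouse chromosome 7. On these arrays each is read by 1 probe that names it, printed at 1 spot per array, so 3 of the 35019 gene or transcript names on the array, 3 of 55681 probes and 63 spots over 21 arrays are described here. With 1 probe a gene, agreement between probes of a gene could not be compared. The probes were taken by gene name from the scanner files, and the genes were picked because earlier results of the same data placed them among the largest differences between the groups. Their differences between groups are therefore given as a description with no test.

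The livers came from adult male C57BL/6J mice, an inbred strain. HF-Q mice (n = 10) ate a high-fat diet with 0.33% (w/w) quercetin, a plant flavonol, for 12 weeks. HF mice (n = 11) ate the high-fat diet without quercetin for as long. Both groups had first eaten a normal-fat diet for 3 weeks and were fasted for 2 to 4 hours before the liver was taken. The study used 24 mice and its authors left out 3 arrays for uneven hybridisation. Each array set 1 liver, labelled with Cy5, against a Cy3-labelled pool of all samples, and no array had the dyes swapped.

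The Cyp2b enzymes are haem proteins of the endoplasmic reticulum that add oxygen to drugs, steroids and fatty acids, with electrons from the reductase Por. Cyp2b10 is the classical target gene of the nuclear receptor CAR (Nr1i3) in mouse liver and is strongly induced by phenobarbital through a distal enhancer. Cyp2b9 and Cyp2b13 are known as female-biased genes of mouse liver, held low in males by the pulsatile release of growth hormone acting through STAT5.

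The probes are shown because every value below rests on these 60 bases per gene. They lie on the plus strand of chromosome 7 of build NCBI37 (mm9), at chr7:26711522-26711581 for Cyp2b10, chr7:26880905-26880964 for Cyp2b13 and chr7:26983484-26983543 for Cyp2b9, per the array files. Exon and UTR positions are not annotated here.
Cyp2b10, probe A_55_P2044653: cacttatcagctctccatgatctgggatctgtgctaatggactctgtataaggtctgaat
Cyp2b13, probe A_52_P289091: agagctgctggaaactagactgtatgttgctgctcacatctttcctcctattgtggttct
Cyp2b9, probe A_52_P256914: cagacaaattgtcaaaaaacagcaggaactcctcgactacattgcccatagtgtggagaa
The longest run of bases shared by a pair of these probes was 6, between Cyp2b10 and Cyp2b13. Whether a probe also binds transcripts of its close relatives was not tested.

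The promoters are shown because the 3 genes varied together across livers. RefSeq (GRCm38.p6) gave a window for each of the 3 genes, and the 250 bases before the start of transcription are printed, plus strand, 5′ to 3′. They span chr7:25897408-25897657 for Cyp2b10, chr7:26061245-26061494 for Cyp2b13 and chr7:26173159-26173408 for Cyp2b9. Capitals mark bases that differ between Cyp2b13 and Cyp2b9, and in Cyp2b10 those that differ from Cyp2b9 in a global alignment.
Cyp2b10: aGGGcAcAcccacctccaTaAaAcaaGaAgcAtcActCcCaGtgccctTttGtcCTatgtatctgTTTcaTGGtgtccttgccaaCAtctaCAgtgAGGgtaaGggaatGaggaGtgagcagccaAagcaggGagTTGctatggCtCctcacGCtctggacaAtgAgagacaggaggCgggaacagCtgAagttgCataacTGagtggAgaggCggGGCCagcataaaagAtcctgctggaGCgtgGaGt
Cyp2b13: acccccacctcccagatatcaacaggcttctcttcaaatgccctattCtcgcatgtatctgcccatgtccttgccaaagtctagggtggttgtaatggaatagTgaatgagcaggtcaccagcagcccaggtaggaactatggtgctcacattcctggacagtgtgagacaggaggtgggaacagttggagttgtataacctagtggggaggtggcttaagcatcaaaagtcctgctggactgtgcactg
Cyp2b9: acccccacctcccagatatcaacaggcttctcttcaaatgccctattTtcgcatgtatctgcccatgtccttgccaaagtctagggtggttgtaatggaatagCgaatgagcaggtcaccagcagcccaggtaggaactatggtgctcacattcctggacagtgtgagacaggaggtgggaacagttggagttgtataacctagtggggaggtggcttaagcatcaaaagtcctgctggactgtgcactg
The Cyp2b9 and Cyp2b13 windows differed at 2 of 250 bases, an identity of 99.2%, whereas Cyp2b10 was 71.4% identical to either. The half-site AGGTCA, a core sequence of nuclear receptor binding sites, was searched on both strands. It was found in the Cyp2b13 and Cyp2b9 windows and not in that of Cyp2b10, and 14.0% of the 32851 RefSeq windows of this length held it. The palindrome TTCNNNGAA, the form bound by STAT5, was in none of the 3 windows and in 7.02% of all windows. A match is a description of these letters and not a measured binding site.

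Between 44.2% and 51.3% of probes per array were well above background in Cy5, and the 6 hepatocyte markers tested (Alb, Apoa1, Ttr, Cps1, Serpina1a and Fgb) were well above background on all 21 arrays. Summed RNA of whole livers cannot tell fewer cells of a type from less RNA per cell. Pancreatic acinar transcripts, of which 4 of 6 listed genes passed the signal filter, had a mean log2 ratio of −1.09 to −0.20 in HF-Q livers and −1.16 to 2.63 in HF livers. The highest values were 2.63 in HF replicate 11 and 2.00 in HF replicate 5, both among the livers with high Cyp2b values. The Cyp2b10 difference between HF-Q and HF livers was −1.24 on the log2 scale without HF replicate 5 and −1.32 without HF replicate 11, against −1.34 with all livers.

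Cyp2b10 was bright in every liver. Its Cy5 signal, in scanner units, ran from 297 through a median of 567 to 2051 in HF-Q livers, and from 293 through 1539 to 7630 in HF livers. All 10 HF-Q and all 11 HF spots were well above background, so Cyp2b10 is measured on both sides.

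Cyp2b13, a relative with female-biased expression, was near the detection limit. Its Cy5 signal had a lowest, median and highest value of 43.5, 58.4 and 149 in HF-Q livers, and of 52.1, 127 and 420 in HF livers. The spot was well above background in 1 of 10 HF-Q livers and 10 of 11 HF livers.

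Cyp2b9, the second female-biased member, behaved alike. Its Cy5 signal was 48.7, 55.4 and 155 at the lowest, median and highest HF-Q liver, and 62.6, 111 and 525 in HF livers. The spot was well above background in 2 of 10 HF-Q livers and 10 of 11 HF livers. In 1 of those 2 HF-Q livers, replicate 4, the Cy3 signal of the pool at the same spot was 206, against a range of 99.5 to 138 on the other arrays, so the ratio there stayed low. No member spot was saturated or marked as an outlier.

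**Figure D1:**
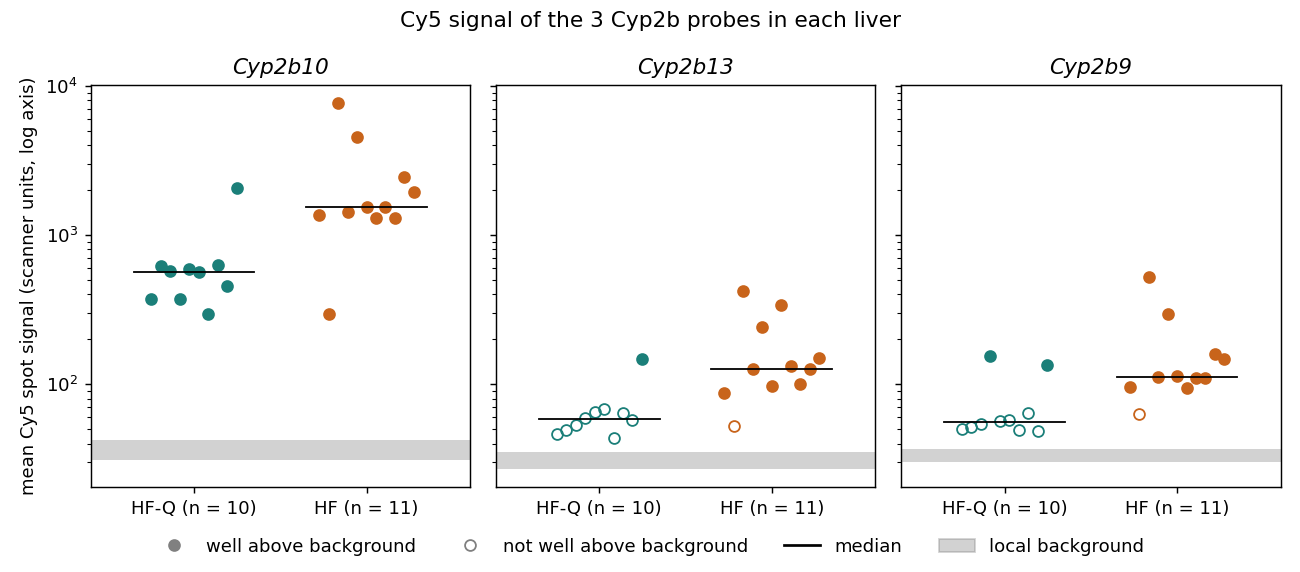
Mean Cy5 spot signal (scanner units, log axis) of each liver for the 3 genes, HF-Q left and HF right. Filled points are well above background, open points are not, black lines are medians and the grey band is the range of local background; Cyp2b13 and Cyp2b9 are mostly open in HF-Q and filled in 10 of 11 HF livers.

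After loess normalization, the log2 ratio of liver to pool for Cyp2b10 was −1.81, −1.13 and 0.62 at the lowest, median and highest HF-Q liver, and −1.96, 0.13 and 1.87 in HF livers. The means were −1.09 ± 0.70 in HF-Q and 0.25 ± 0.95 in HF livers (SD, n = 10 and 11). The difference was −1.34 ± 0.37 (SE), that is 2.53-fold lower in HF-Q, and it ranked 1 of 26291 probes by size. The members were chosen by this contrast, and the SE of each takes no account of that choice. The ranges overlap, through 1 liver of each group.

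Cyp2b13 had log2 ratios of −0.70, −0.50 and 0.39 at the lowest, median and highest HF-Q liver, and of −0.68, 0.22 and 1.32 in HF livers. It averaged −0.41 ± 0.31 in HF-Q and 0.35 ± 0.59 in HF livers (SD, n = 10 and 11). The difference was −0.75 ± 0.21 (SE), or 1.69-fold lower in HF-Q. By size of the difference Cyp2b13 ranked 10. Since 9 of 10 HF-Q spots were not well above background, their ratios are near the floor of what the array measures, so the fold and rank hold for this processing alone; with the scanner software's processed signals the difference was −2.38.

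Cyp2b9 had log2 ratios of −0.82, −0.43 and 0.39 at the lowest, median and highest HF-Q liver, and of −0.50, 0.21 and 2.01 in HF livers. It averaged −0.39 ± 0.32 in HF-Q and 0.38 ± 0.67 in HF livers (SD, n = 10 and 11). The difference was −0.76 ± 0.23 (SE), or 1.70-fold lower in HF-Q, and Cyp2b9 ranked 8 by size. Here 8 of 10 HF-Q spots were not well above background, and with processed signals the difference was −2.76, so its size too is that of this processing. All 3 genes thus stood among the 14 probes whose difference reached 0.7 on the log2 scale, which is the property they were chosen by.

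**Figure D2:**
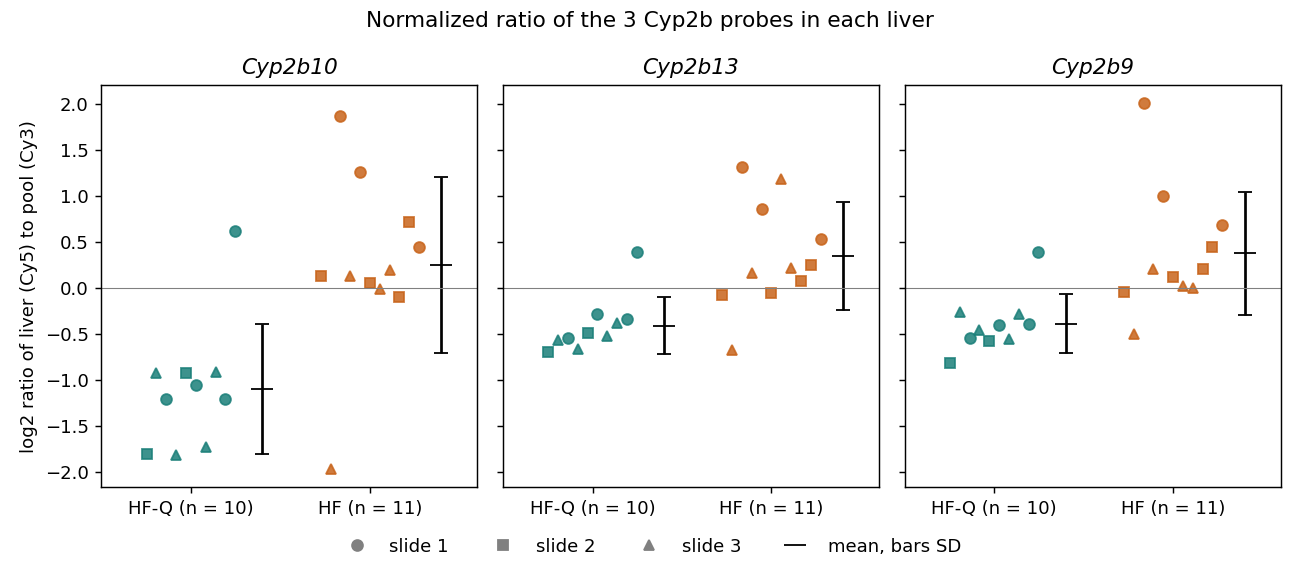
Normalized log2 ratio of liver (Cy5) to pool (Cy3) in each liver for the 3 genes, HF-Q left and HF right, with the slide as marker shape and the group mean ± SD in black. For each gene 9 of 10 HF-Q livers lie below 10 of 11 HF livers, and HF-Q replicate 10 and HF replicate 2 lie on the other side. The genes were chosen by this contrast, so the split is no test of it.

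The same pair of livers stood across the divide in all 3 genes. In HF-Q replicate 10 the log2 ratios were 0.62 for Cyp2b10, 0.39 for Cyp2b13 and 0.39 for Cyp2b9, while the next highest HF-Q livers were at −0.91, −0.28 and −0.26. In HF replicate 2 they were −1.96, −0.68 and −0.50, while the next lowest HF livers were at −0.10, −0.08 and −0.04. For each gene 9 of 10 HF-Q livers lay below all HF livers but that one. The genes were chosen by this contrast, so the split is no test of it. How many of all probes split the groups as well was not computed. For Cyp2b13 and Cyp2b9, well above background in 1 and 2 of 10 HF-Q livers, it also rests on spots near the floor.

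Across all probes, limma's moderated test with Benjamini-Hochberg adjustment called 0 of 26291 (0%) between HF-Q and HF. At an unadjusted p under 0.05 it called 1486 probes (5.65%). By the adjusted p, the other settings tried called at most 1 probe. The members were read against this background only as sizes, since they were selected on this contrast.

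Variation among livers of the same group was wide for all members. The SD of Cyp2b10 was larger than that of 99.7% of probes in HF-Q and 99.9% in HF, that of Cyp2b13 larger than 96.3% and 99.5%, and that of Cyp2b9 larger than 96.6% and 99.7%. For Cyp2b13 and Cyp2b9 the HF-Q spread rests largely on replicate 10. The other HF-Q livers ran from −0.70 to −0.28 for Cyp2b13 and from −0.82 to −0.26 for Cyp2b9, mostly not well above background. From the lowest to the highest liver, the Cyp2b10 ratio spanned 5.39-fold in HF-Q and 14.2-fold in HF.

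The livers were spread over 3 slides, each holding both groups. For Cyp2b10 the difference was −1.90 on slide 1 (4 HF-Q and 3 HF livers), −1.56 on slide 2 (2 and 4) and −0.93 on slide 3 (4 and 4). For Cyp2b13 it was −1.10, −0.64 and −0.75, and for Cyp2b9 −1.47, −0.87 and −0.32 on the same slides. The direction was the same on each slide for each gene, while the size varied: the 3 HF livers of slide 1 (replicates 3, 5 and 11) were high for the 3 genes, and slide 3 held HF replicate 2.

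**Figure D3:**
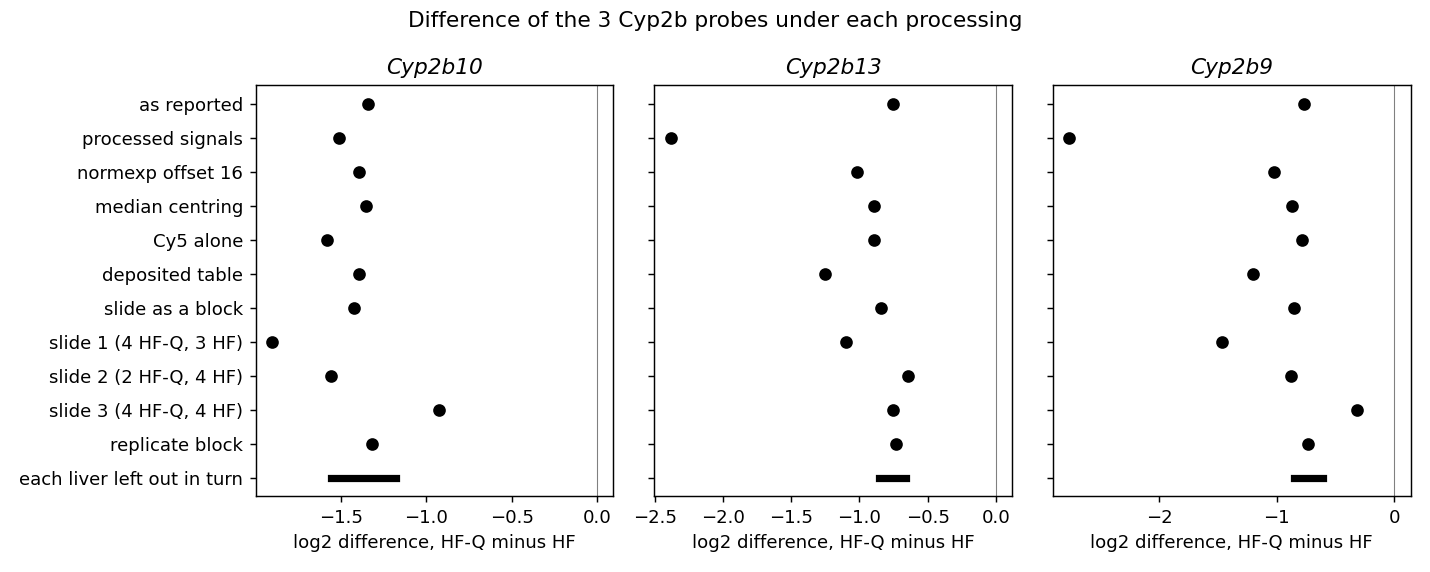
Log2 difference between the groups (HF-Q minus HF) for the 3 genes, as reported and under each other processing, each slide and the replicate block; the bar gives the range with each liver left out in turn. All points lie below 0, and the 2 dim genes, Cyp2b13 and Cyp2b9, reach −2.38 and −2.76 with the scanner software's processed signals.

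The 3 genes varied together among livers of the same group. In HF-Q livers Cyp2b10 correlated with Cyp2b9 at r = 0.90 (Spearman's rho 0.67) and with Cyp2b13 at r = 0.91 (rho 0.62), and Cyp2b9 with Cyp2b13 at r = 0.90 (rho 0.54; n = 10). Two-sided permutation p-values were 0.00401, 0.00359 and 0.00543 for r and 0.0391, 0.0601 and 0.114 for rho. Leaving out the 2 livers farthest from the median gave r = 0.76, 0.54 and 0.30, and without replicate 10 alone r was 0.63, 0.64 and 0.57, with adjusted exact permutation p of 0.0813, 0.0813 and 0.107. The HF-Q correlations thus rest on replicate 10. They also rest on dim spots, as Cyp2b13 was well above background in 1 and Cyp2b9 in 2 of the 10 HF-Q livers.

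In HF livers the r was 0.88 for Cyp2b10 with Cyp2b9 (rho 0.79), 0.78 for Cyp2b10 with Cyp2b13 (rho 0.68) and 0.75 for Cyp2b9 with Cyp2b13 (rho 0.73; n = 11). The permutation p-values were 0.00112, 0.00473 and 0.00635 for r and 0.00564, 0.025 and 0.0149 for rho. Over the 6 pairs the adjusted p was 0.00635 for each r, and 0.0338 to 0.114 for rho. That the same 2 livers stood apart in all members was known beforehand, so these p-values are not independent evidence.

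Cyp2b10 and Cyp2b9 stayed close in HF livers at r = 0.87 without the 2 farthest livers, and at r = 0.95 without replicate 2 (adjusted permutation p = 0.0042). Cyp2b10 and Cyp2b13 came to r = 0.36 without the 2 farthest livers, and Cyp2b9 and Cyp2b13 to 0.52. Without replicate 2 alone they had r = 0.65 and 0.68 (adjusted permutation p = 0.0374 and 0.0294), and with HF-Q replicate 10 left out of the 6 pairs as well, the adjusted permutation p of these 2 HF pairs was 0.0749 and 0.0734. HF replicate 7 set Cyp2b13 apart: its log2 ratio was 1.19 for Cyp2b13, 0.02 for Cyp2b9 and −0.01 for Cyp2b10. Without it r was 0.94 for Cyp2b10 with Cyp2b13 and 0.96 for Cyp2b9 with Cyp2b13. With slide means taken out within each group, r was 0.90 to 0.96 in HF-Q and 0.64 to 0.79 in HF.

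**Figure D4:**
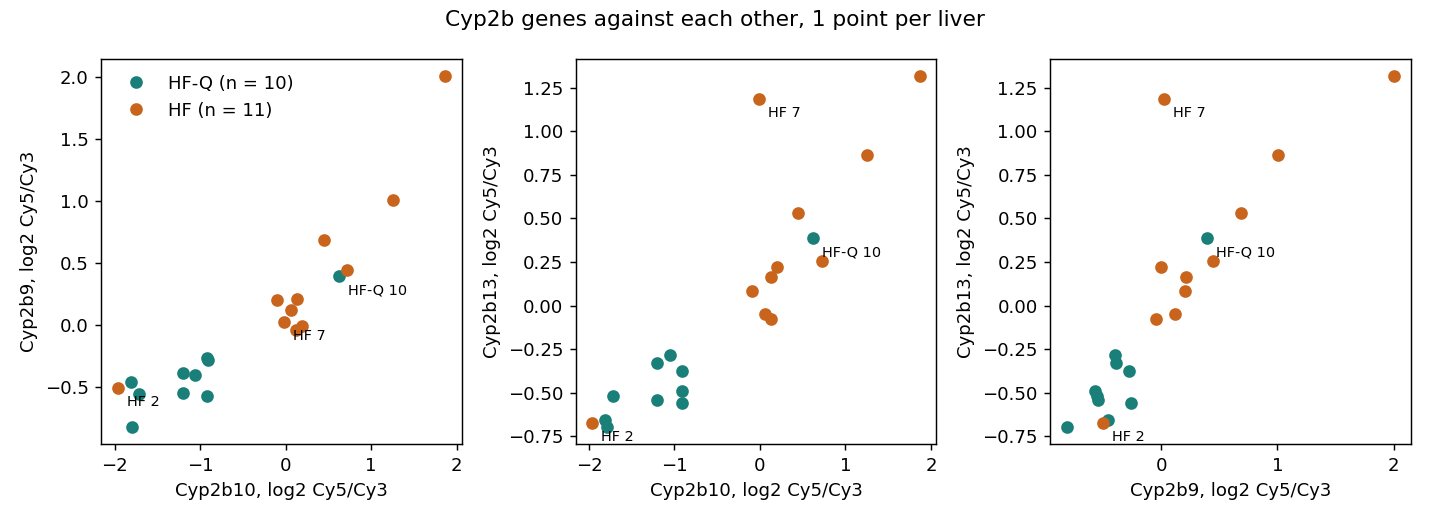
Log2 ratios of the 3 genes set against each other, 1 point per liver, HF-Q and HF in separate colours. With all livers in, the genes follow each other in both groups. HF-Q replicate 10 lies among HF livers, HF replicate 2 among HF-Q livers, and HF replicate 7 is high for Cyp2b13 alone. The HF-Q relation rests on replicate 10: without it r was 0.63 for Cyp2b10 with Cyp2b9, 0.64 for Cyp2b10 with Cyp2b13 and 0.57 for Cyp2b9 with Cyp2b13. Most HF-Q spots of Cyp2b13 and Cyp2b9 are not well above background.

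Neighbouring probes of the locus were read for comparison, on NCBI37. Cyp2s1, another P450 gene upstream of the cluster, averaged −0.01 ± 0.17 in HF-Q and −0.01 ± 0.18 in HF livers (SD, n = 10 and 11). BC026762, between Cyp2b10 and Cyp2b13, averaged 0.11 ± 0.25 in HF-Q and −0.09 ± 0.24 in HF livers. Past Cyp2b9, the female-biased gene Cyp2a4 had 2 probes, both well above background on all arrays and both lower on average in HF-Q. The first averaged −0.34 ± 0.54 in HF-Q and 0.04 ± 0.52 in HF livers (SD, n = 10 and 11), a difference of −0.38. The second averaged −0.49 ± 0.63 in HF-Q and −0.01 ± 0.59 in HF livers (SD, n = 9 and 11, as 1 HF-Q spot was marked as an outlier), a difference of −0.47 ± 0.25 (SE; limma adjusted p = 0.897). The unnamed probe next to Cyp2b9, A_55_P2034531, differed by −0.23 but was well above background in 0 of 10 HF-Q and 1 of 11 HF livers. Cyp2b19 and Cyp2b23, the remaining Cyp2b genes with a probe, were not well above background on any array. Among the listed Cyp2 genes of the cluster, 5 of 7 tested were lower in HF-Q, where 53.1% of all 19718 genes were lower. Their median difference was −0.15 and 0 passed limma's adjusted test. At an unadjusted p under 0.05 limma's test called 2 of the 7 (5.86% of all genes). With arrays centred on the median in place of loess, 34.4% of all genes were lower and 4 of these 7.

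As a list, the receptors that act on Cyp2b10 and their partners differed little between the groups, while CAR was lower on average in HF-Q. CAR itself (Nr1i3) averaged −0.21 ± 0.18 in HF-Q and −0.03 ± 0.12 in HF livers, a difference of −0.18 ± 0.06 (SE; limma adjusted p = 0.839). With 1 liver left out this difference ran from −0.20 to −0.14. The pregnane X receptor PXR (Nr1i2) differed by −0.01 ± 0.05 and their heterodimer partner Rxra by 0.05 ± 0.05. Of 17 genes in this list, 10 were lower and 7 higher, with a median difference of −0.01. In limma's test 0 passed, and 2 had an unadjusted p under 0.05 (5.86% of all genes had). With median centring 6 of the 17 were lower.

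Other target genes of CAR and PXR did not shift as a list. Of 26 tested, 14 were lower and 12 higher in HF-Q with a median difference of −0.01, none passed, and 2 had an unadjusted p under 0.05 (5.86% of all genes had). With median centring 7 of 26 were lower. The 2 genes were Slco1a4, a sinusoidal uptake transporter, with a difference of −0.52 ± 0.18 (limma adjusted p = 0.812), and the retinal dehydrogenase Aldh1a1 at −0.21 ± 0.07 (adjusted p = 0.839). Cyp3a11, a typical PXR target, differed by −0.04 ± 0.11, Cyp2c29 by 0.06 ± 0.06, Cyp2c55 by −0.01 ± 0.07, and the electron donor Por by −0.07 ± 0.18.

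Pericentral hepatocyte markers were listed because Cyp2b enzymes are mostly made around the central vein. All 8 were lower in HF-Q (53.1% of all genes were), with a median difference of −0.11 and 0 passing. With median centring 7 of 8 were lower (34.4% of all genes). Of 7 periportal markers 3 were lower, with a median of 0.00.

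Sex-biased genes were read next because 2 members are female-biased. Of 12 other female-biased genes on the array 6 passed the signal filter. All 6 were lower in HF-Q (53.1% of all genes were) with a median difference of −0.21, and none passed the adjusted test. A gene can pass the filter through HF livers alone, as Hao2 could, which favours genes lower in HF-Q. The count is therefore a description and no test. With median centring 5 of 6 were lower (34.4% of all genes). Hao2, a peroxisomal hydroxyacid oxidase, had log2 ratios of −0.54, −0.17 and 0.37 at the lowest, median and highest HF-Q liver and −0.32, 0.04 and 0.69 in HF livers. The difference was −0.37 ± 0.12 (limma adjusted p = 0.812). The Hao2 spot was well above background in 3 of 10 HF-Q and 10 of 11 HF livers, so the HF-Q values are mostly near the floor. As with the members, HF-Q replicate 10 was highest of its group and HF replicate 2 lowest of its own. The female-biased transcription factor Cux2 was not well above background on any array.

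Of 13 male-biased genes 10 were higher in HF-Q (9246 of all 19718 genes were), with a median difference of 0.24 and 0 passing. Cyp4a12b, a fatty acid hydroxylase of male liver, had log2 ratios of −1.10, 0.06 and 0.42 at the lowest, median and highest HF-Q liver and −1.05, −0.21 and 0.73 in HF livers. Its lowest HF-Q liver was replicate 10 and its highest HF liver was replicate 2, the reverse of the members. Of 12 genes of growth hormone and STAT5 signalling 9 were higher, with a median difference of 0.03 and 0 passing. Among them, the signal transducer Stat5b differed by 0.02 ± 0.09 and the repressor Bcl6 by −0.36 ± 0.48.

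Within each group the male-biased genes ran opposite to Cyp2b10. Across livers, 11 of 11 such genes in HF-Q and 12 of 12 in HF had a negative r, with a median of −0.68 in HF-Q and −0.80 in HF (−0.15 and −0.74 with median centring, where 7 of 11 and 10 of 12 were negative). For comparison, 47.5% of all genes had a positive r in HF-Q and 50.3% in HF, with a median r of −0.03 and 0.00. Without HF-Q replicate 10 the list's median was −0.24 and 8 of 11 were negative, and without HF replicate 2 it was −0.59 and 11 of 12 were negative. No male-biased gene passed limma's adjusted test of variation with Cyp2b10 over all genes, in either group.

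Among the male-biased genes named for their difference between groups, Mup20, a major urinary pheromone protein, had r = −0.77 with Cyp2b10 in HF-Q (rho −0.77; permutation p 0.00452 and 0.012) and −0.81 in HF (rho −0.61; p 0.00156 and 0.0517). Without the discordant liver of each group (HF-Q replicate 10 or HF replicate 2) r was −0.87 in HF-Q and −0.66 in HF. For Cyp4a12b r was −0.87 in HF-Q (rho −0.42; p 0.0146 and 0.232) and −0.86 in HF (rho −0.64; p 0.00135 and 0.0401). Without the discordant liver it was −0.40 in HF-Q and −0.71 in HF. C6, a complement component, and Cyp7b1, an oxysterol hydroxylase, had r of −0.90 and −0.68 in HF-Q and −0.80 and −0.84 in HF. Without the discordant liver r of C6 was −0.54 in HF-Q and −0.55 in HF, and that of Cyp7b1 −0.09 in HF-Q and −0.62 in HF. Without the 2 farthest livers r of Cyp7b1 was −0.10 in HF-Q and −0.21 in HF.

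The other female-biased genes did not run with Cyp2b10 as a list in HF-Q, where 2 of 5 with a ratio in every liver had a positive r (median 0.00), while 5 of 6 did in HF (median 0.51). In HF-Q r was −0.33 for Fmo2, −0.15 for Cyp3a16, 0.00 for Acot3 and 0.73 for Cyp17a1. Hao2 had r = 0.83 in HF-Q (rho 0.58; permutation p 0.00798 and 0.0882) and 0.88 in HF (rho 0.77; p 3e-05 and 0.00767). Without the 2 farthest livers it was 0.43 in HF-Q and 0.88 in HF, and without the discordant liver 0.50 in HF-Q and 0.90 in HF. The HF-Q value and its p rest on spots of which 3 of 10 were well above background. Over the 16 relations computed for 8 listed genes, adjusted permutation p-values for r were 0.00048 to 0.521, with Hao2 in HF the lowest, and 0.0964 to 0.654 for rho. Over all genes limma's adjusted p for Hao2 was 0.139 in HF-Q and 0.0874 in HF.

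With all livers in, genes of lipid-laden hepatocytes had a positive r with Cyp2b10. This held for 9 of 9 in HF-Q (median 0.53) and in HF (median 0.57). Of all genes 47.5% had a positive r in HF-Q and 50.3% in HF. All 9 were lower in HF-Q (53.1% of all genes were), with a median difference of −0.25 and none passing. With median centring 8 of 9 were lower (34.4% of all genes). Without HF-Q replicate 10 the median r was 0.26 with 6 of 9 positive, and without HF replicate 2 it was 0.27 with 9 of 9 positive. Of all genes 48.5% had a negative r without HF-Q replicate 10 and 50.8% without HF replicate 2. The HF-Q count thus rests largely on replicate 10. Cidea, a lipid droplet protein, had log2 ratios of −2.42, −1.02 and 1.45 at the lowest, median and highest HF-Q liver and −2.26, −0.55 and 1.63 in HF livers, a difference of −0.84 ± 0.52 (limma adjusted p = 0.943). It correlated with Cyp2b10 at r = 0.88 in HF-Q (rho 0.71; permutation p 0.00272 and 0.0266) and 0.23 in HF (rho 0.15; p 0.521 and 0.654). The 2 values of r were not compared. Where slopes on Cyp2b10 were compared between the groups, 0 of 19221 genes passed limma's adjusted test. The fatty acid transporter Cd36 had r = 0.81 in HF-Q and 0.75 in HF, and without the discordant liver 0.55 in HF-Q and 0.34 in HF. Without the discordant liver r of Cidea was 0.69 in HF-Q and 0.10 in HF.

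HF-Q replicate 10 and HF replicate 2 also stood at opposite ends of these lists. In HF-Q replicate 10 the mean log2 ratio was −0.45 over male-biased and 0.69 over lipid-laden genes, the lowest and the highest of its group. In HF replicate 2 the means were 0.50 and −0.83, the highest and the lowest of its group. Hepatocyte markers averaged −0.09 in HF-Q replicate 10, the lowest of any liver, and 0.51 in HF replicate 2; whether this bears on the Cyp2b values was not tested.

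**Figure D5:**
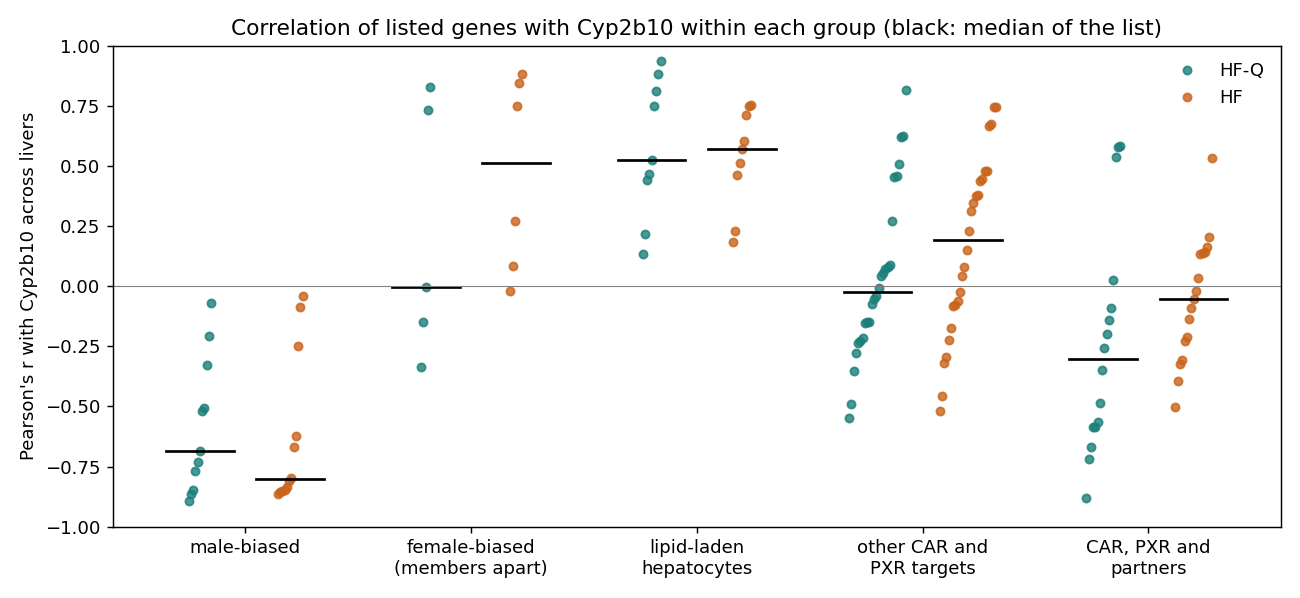
Pearson's r with Cyp2b10 across livers for each gene of 5 lists, HF-Q left and HF right within each list, with the median of the list in black. Male-biased genes lie below 0 and genes of lipid-laden hepatocytes above 0 in both groups, while the other lists spread on both sides of 0.

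The genes most like Cyp2b10 were then ranked over all genes, within each group. In HF-Q 5 of 19385 genes (0.0258%) varied with Cyp2b10 at limma's adjusted p under 0.05, and in HF 4 of 19420 (0.0206%). In HF-Q these were B230114P17Rik (r = 0.95), a name of the array files that matched no RefSeq symbol, Rasgrp2 (0.94), a Ras guanine nucleotide exchange factor, Mogat1 (0.94), a monoacylglycerol acyltransferase, Sult2a7 (0.93), a sulfotransferase, and Enho (−0.93), which encodes the peptide adropin. In HF they were the cobalamin carrier Tcn2 (0.96), the glutathione transferase Gstt3 (0.93), the hepcidin gene Hamp2 (0.93) and Asns (−0.89), the asparagine synthetase. Among all genes Cyp2b9 ranked 27 by r in HF-Q (limma adjusted p = 0.0549) and 13 in HF (0.0596), and Cyp2b13 ranked 19 in HF-Q (0.0549) and was farther down in HF (0.237). These counts rest on single livers: with 1 liver left out they ran from 0 (without HF-Q replicate 6, 8 or 10) to 18 (without replicate 5) in HF-Q, and from 0 (without HF replicate 5) to 9 (without replicate 9) in HF.

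The per-liver values of Hamp2 are given as an example of a gene chosen by its r in HF. Hamp2 ran from −1.63 through a median of −0.36 to 0.71 in HF-Q livers and from −2.10 through 0.54 to 1.72 in HF livers, with HF-Q replicate 10 highest in HF-Q, HF replicate 2 lowest in HF and HF replicate 3 highest. Its r was 0.67 in HF-Q (rho 0.75, permutation p 0.0263 and 0.0177) and 0.93 in HF (rho 0.69, p 0.00043 and 0.023). As Hamp2 was chosen by its r in HF, the HF p-values are no test of it. In HF-Q the permutation p for r, adjusted over the genes chosen in HF, was 0.105, so Hamp2 did not pass there. Gstt3 had r of 0.73 in HF-Q and 0.93 in HF, and Tcn2 0.49 and 0.96. Without the 2 farthest HF livers these r in HF were 0.64 for Hamp2, 0.64 for Gstt3 and 0.72 for Tcn2.

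Among genes with a RefSeq symbol, the 8 of highest r in HF-Q also included Anapc13, Ppp1ca, Tprgl, 4921531P14Rik and Rdh16 (r = 0.92 to 0.93), and the 4 of lowest r were Gnal, Tmem44, Rpl13 and Dgkd (−0.96 to −0.94). In HF the highest also included Gpx1, Sult1a1, Siglece, Slc25a47 and Rida (0.89 to 0.90), and the lowest were Sema6d, Asph, Rpl13 and Trappc11 (−0.93 to −0.90). Genes chosen in 1 group could be tested in the other. Of the 12 chosen in HF-Q, 8 had the same sign in HF and 3 passed there, and of the 12 chosen in HF, 11 had the same sign in HF-Q and 1 passed, by permutation p adjusted over the 12. Those that passed were Rpl13 tested either way, and in HF Ppp1ca, a protein phosphatase, and Rdh16, a retinol dehydrogenase. The share of all genes with the same sign in both groups was not computed, so the counts of sign have no background.

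Rpl13, which encodes a ribosomal protein, was thus among the 4 lowest in both groups. Its r was −0.95 in HF-Q (rho −0.65) and −0.90 in HF (rho −0.64), with adjusted permutation p of 0.0146 in HF-Q and 0.0186 in HF. Over all genes limma's adjusted p for Rpl13 was 0.178 in HF-Q and 0.421 in HF. The values themselves moved little, from −0.26 to 0.10 in HF-Q livers and from −0.22 to 0.10 in HF livers on the log2 scale. With arrays centred on the median in place of loess, r in HF-Q was 0.03, so the HF-Q relation did not hold under that processing. For Ppp1ca and Rdh16 in HF, r was 0.80 and 0.79, and 0.02 and 0.31 without the 2 farthest livers.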

How the data were processed

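Livers were measured on 21 two-colour Agilent mouse arrays. The deposited scanner output, made with Agilent Feature Extraction 10.7.3.1 per the submitters' processing notes, holds each spot's raw mean and background intensity for both dyes with a yes-or-no mark for signal well above background, per the file headers. A second table holds log2 values deposited by the authors. Its columns follow the Cy5 signal at r = 0.985 to 0.999 and the Cy3 signal at r of up to 0.992. These r alone do not tell the dyes apart. The columns share a median of 7.92, with the normalizing step not given in the sources used here. This second table served as an alternative.

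Background was corrected with normexp (offset 50), which draws ratios of dim spots toward 0, and log2 Cy5/Cy3 was then normalized with loess inside each array (limma 3.58.1, R 4.3.3), with control spots and outlier-flagged spots left out. Probes well above background in Cy5 on at least 10 of 21 arrays were tested (26291 probes, 19718 genes by the brightest probe). Names were updated through RefSeq accessions for 27235 probes. Groups come from the labels. Differences are HF-Q minus HF, tested two-sided with limma's moderated test and adjusted by Benjamini-Hochberg over the whole table. Variation with Cyp2b10 was tested with limma on its log2 ratio within a group. Permutation tests of r used 100000 permutations, and all orders where under 10 livers were left. Fits were tested on simulated data. The members, and the gene lists, were chosen with earlier results of these data known. Genes named are all members, the 8 highest and 4 lowest r with Cyp2b10 per group, up to 4 genes of lowest unadjusted p per list, and a fixed panel (Nr1i3, Nr1i2, Rxra, Por, Cyp3a11, Cyp2c29, Cyp2c55, Stat5b, Bcl6, Cux2, Cidea). Livers are separate mice, and the number of arrays limits precision.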

Additional observations from a re-analysis of the deposited data

Results flagged for a closer look

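One liver lay far from the others of its group in each member. In HF-Q replicate 10 the log2 ratio was 0.619 for Cyp2b10, 0.388 for Cyp2b13 and 0.392 for Cyp2b9, and the gap to the next liver was 0.628, 0.621 and 0.541 of the whole range of HF-Q livers. The Cy3 signal of the pool at the Cyp2b9 spot was 206 on the array of HF-Q replicate 4, where the next array of the group read 136. In all 4 the gap passed Dixon's 95% value of 0.466 for 10 livers, among 6 quantities examined. With a normal spread, chance gives such a gap in about 1 of 20 groups. Ratios near the floor, as of Cyp2b13 and Cyp2b9 in most HF-Q livers, need not have that spread. That replicate 10 stood apart was known beforehand, and the 3 members share their livers, so the gaps are a description. HF, with 11 livers, was not examined this way.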

How the results depend on the processing

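The lower Cyp2b values in HF-Q kept their direction in each alternative run, including slide as a block. Cyp2b10 ran from −1.56 (without HF replicate 2) to −1.18 (without replicate 3) with 1 liver left out, Cyp2b13 from −0.86 to −0.66 and Cyp2b9 from −0.85 to −0.60. For the dim members the size depends on the processing: with processed signals Cyp2b13 differed by −2.38 and Cyp2b9 by −2.76, with the deposited table Cyp2b13 by −1.26, and on slide 1 alone Cyp2b9 by −1.47. Of these probes, Cyp2b13 and Cyp2b9 are near background in HF-Q, which limits how well their size is known.

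With the replicate block, numbers 1 to 10, the differences were −1.32, −0.73 and −0.73 for Cyp2b10, Cyp2b13 and Cyp2b9, and 0 probes passed. The numbers do not pair livers: same-numbered livers correlated at −0.32 to 0.15 (median −0.01), 2 of 10 pairs were over 0.1 and none was best with its own number.

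Probes past the adjusted threshold numbered 0 in each setting with all livers, and 0 to 1 with a liver left out, the 1 being Sult2a7 without HF-Q replicate 10. Genes varying with Cyp2b10 numbered 5 in HF-Q, and 0 with processed signals, 0 with median centring, 51 with Cy5 alone, 9 with the deposited table, 0 with slide as a block, 17 without the filter and 0 to 18 with a liver left out (2 without replicate 1 or 3, 8 without replicate 2). In HF they numbered 4, and 7 with processed signals, 11 with median centring, 8 with Cy5 alone, 7 with the deposited table, 1 with slide as a block and 0 to 9 with a liver left out (2 without replicate 1, 2, 6 or 8). The cause was not tested.

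With 1 liver left out, r of Cyp2b10 with Cyp2b9 ran from 0.63 to 0.94 in HF-Q and 0.86 to 0.95 in HF, with Cyp2b13 from 0.64 to 0.95 and 0.65 to 0.94, and of Cyp2b9 with Cyp2b13 from 0.57 to 0.95 and 0.63 to 0.96. All 3 pairs lost the call without HF-Q replicate 10, and Cyp2b9 with Cyp2b13 in HF without HF replicate 3 (adjusted permutation p = 0.0529). Without HF replicate 2, adjusted over the 6 pairs with the other group whole, no HF pair lost the call. With Cy5 alone, Cyp2b10 and Cyp2b9 in HF-Q had r = 0.52.

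Differences near 0 changed sign. Nr1i2 was 0.033 with median centring, 0.011 with the deposited table, 0.034 on slide 1, 0.062 on slide 3 and −0.030 to 0.027 with a liver left out. Rxra was −0.11 on slide 1, Por 0.34 on slide 3, Bcl6 0.43 on slide 2 and Cidea 0.10 on slide 1. Cyp3a11 was 0.041 with median centring, 0.026 on slide 2 and 0.070 on slide 3. Cyp2c55 was 0.036 with processed signals, 0.0027 with median centring, 0.00060 with slide as a block, 0.082 on slide 1, 0.028 on slide 3 and −0.032 to 0.026 with a liver left out. Stat5b was −0.025 on slide 3 and −0.022 to 0.063 with a liver left out. The r of Rpl13 in HF-Q was 0.027 with median centring. Another probe per gene could not be tried, as each member has 1.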

Other observations

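A probe without a gene name in the files, A_55_P2071906, lies between Cyp2b10 and Cyp2b13 on NCBI37 at chr7:26771212-26771271 and was noticed after the values were seen. It was well above background in 1 of 10 HF-Q livers and 10 of 11 HF livers, as Cyp2b13 was. Its log2 ratio averaged −0.27 ± 0.24 in HF-Q and 0.29 ± 0.51 in HF livers (SD, n = 10 and 11), a difference of −0.56 given as a description.

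Slopes on Cyp2b10 were compared between the groups over 19221 genes, a test added after the data were seen. With limma, 0 genes differed at an adjusted p under 0.05 and 1288 at an unadjusted one. The lowest adjusted p was 0.0801, for Sult2a7, which followed Cyp2b10 at r = 0.93 in HF-Q and −0.22 in HF.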
